A study of Papio anubis with 24 samples.

Results

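Among the sites enriched for methylated DNA in baboon induced pluripotent stem cells (iPSC), 1112 autosomal peaks lay 20 kb or more from every peak found in baboon embryonic stem cells (ESC). They are called distant peaks here. They were selected by position in the deposited peak lists: for each iPSC peak on a numbered autosome the gap to the nearest ESC peak was taken as the later start minus the earlier end, and peaks with a gap of at least 20000 bp were kept. The distant peaks made up 2.74% of the 40590 autosomal iPSC peaks (exact 95% interval 2.58 to 2.90%). Of the rest, 26982 overlapped an ESC peak by at least 1 bp, and 12496 lay beside one at a gap of less than 20 kb. These are called overlapping and near peaks. Since position chose the classes, the number of distant peaks and their gaps are descriptions.

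DNA methylation is the addition of a methyl group to cytosine, in mammals mostly where cytosine is followed by guanine (CpG). Most CpG sites of a mammalian genome carry the mark, whereas CpG-dense promoters of active genes are usually free of it. Reprogramming a differentiated cell to pluripotency involves extensive removal and rewriting of the mark, and its distribution is therefore often set beside that of cells derived from embryos. In MeDIP-seq, sheared DNA is precipitated with an antibody against 5-methylcytosine and sequenced beside unprecipitated input DNA. The method recovers fragments with several methylated CpG sites more readily than fragments with few, so a peak marks a stretch that is both methylated and rich enough in CpG to be pulled down.

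The cells were of olive baboon (Papio anubis), grown on feeder cells, a supporting layer of other cells, and all groups shared the same human ES/iPS culture medium. The labels give 6 MeDIP and 6 input libraries of ESC (lines B4 and B15) and as many of iPSC (lines 160-2 and M14939#3), with 3 replicates per line. In 5 of 6 libraries titled M14939#3, the number after the hash sign differs between the title and the cell line entry. The data are 1 peak list per cell type, so there is no value per library or line. No replicate error can be given, no test between cell types is possible, and cell type cannot be told apart from line. An autosomal stretch without an ESC peak is one in which no site passed the threshold of the ESC list, not one shown to lack methylation. Intervals below are exact 95% intervals (binomial for shares and medians, Poisson for densities). They allow for counting error alone and are too narrow where neighbouring peaks depend on each other. The lists name no genes, no genome of their build was at hand, and neither genes nor sequences are given.

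Most distant peaks lay only somewhat beyond the limit. Their median gap was 29.9 kb, with quartiles of 24.1 and 41.9 kb and a maximum of 254 kb. Gaps of 20 to 30 kb held 559 of them (50.3%), 198 (17.8%) had a gap of 50 kb or more, and 24 had one of 100 kb or more, spread over 11 autosomes. On the other side, the next ESC peak was at a median of 57.6 kb. The peaks at the limit itself were ordinary members of the list. Just inside it were peaks on chromosome 3 (106211406 to 106211602, gap 20004 bp, fold 2.48), chromosome 2 (152216925 to 152217120, 20020 bp, fold 2.14) and chromosome 11 (5721382 to 5721623, 20043 bp, fold 3.35). Just outside were peaks on chromosome 10 (88028511 to 88028707, 19976 bp, fold 2.89), chromosome 7 (157547373 to 157547617, 19972 bp, fold 3.26) and chromosome 17 (19542742 to 19542942, 19969 bp, fold 2.75).

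A distant peak can lie only in a stretch of at least 40 kb without an ESC peak, and further than 20 kb from both its borders. There were 16630 such ESC-free stretches, which together took up 1298 Mb or 50.1% of the autosomes. Their central parts beyond 20 kb from either border, called clear sequence here, came to 633 Mb or 24.4% of the autosomes. This clear sequence held 2.74% of the iPSC peaks. The density was 1.76 distant peaks per Mb of clear sequence (1.66 to 1.86), against 20.1 iPSC peaks per Mb in the rest of the autosomes. Thus 15669 of the ESC-free stretches, all but 961, had no distant iPSC peak. The 10 longest, of 428 to 766 kb, held 4 distant peaks in all, and 6 of them held none.

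Long ESC-free stretches were poorer in distant peaks for their length than short ones. Stretches of 40 to 60 kb held 3.15 distant peaks per Mb of clear sequence (2.73 to 3.61). In stretches of 60 to 100 kb the density was 2.10 (1.91 to 2.31), in those of 100 to 200 kb it was 1.43 (1.29 to 1.58), and in those of 200 kb or more it was 0.979 (0.790 to 1.20). The intervals of the 4 length classes did not overlap. Clear sequence in short stretches is also nearer to ESC peaks.

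**Figure D1:**
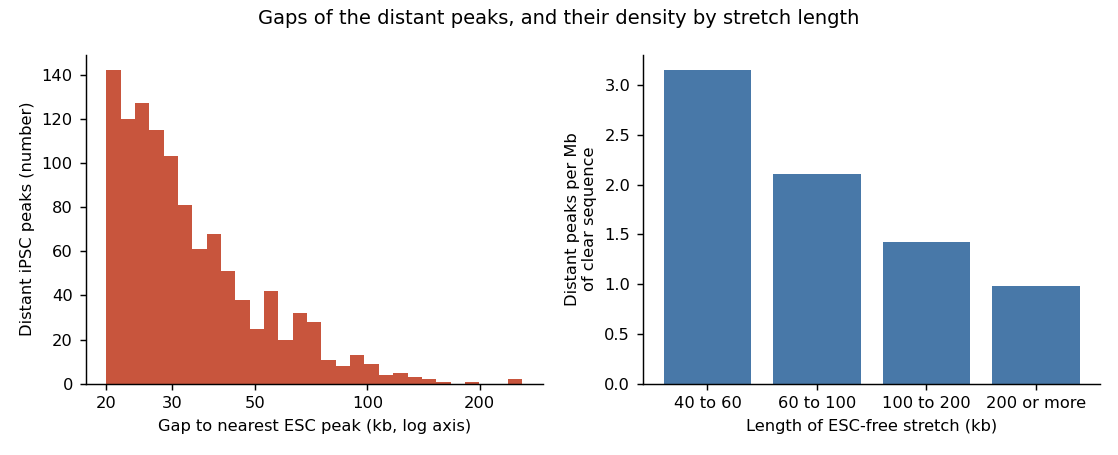
Left, number of distant iPSC peaks by gap to the nearest ESC peak (kb, log axis). Right, distant peaks per Mb of clear sequence in ESC-free stretches of 4 length classes, where bars fall from 3.15 in the shortest to 0.979 in the longest class.

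Over the whole list, distant peaks had fewer fragments at their summits than the other iPSC peaks, over a lower background, and a smaller median width. The deposited fold enrichment, the ratio of fragments at the summit of a peak to the local background, had a median of 2.70 in distant peaks (2.65 to 2.74), 2.58 in near peaks (2.57 to 2.60) and 2.58 in overlapping peaks (2.57 to 2.59). It ranged from 1.50 to 5.58 in distant peaks and reached 7.24 in near and 7.99 in overlapping peaks, and 81 other autosomal iPSC peaks had a fold above the highest distant one. The fold was at least 4 in 59 distant peaks (5.31%, 4.06 to 6.79%), against 4.18% of near and 4.00% of overlapping peaks. The median −log10 q-value, the authors' measure of significance within the list, ran the other way: 6.89 in distant peaks (6.62 to 7.29), 7.50 in near peaks (7.41 to 7.61) and 9.03 in overlapping peaks (8.94 to 9.10). With peaks within 5 Mb of a chromosome end left out, the medians were 6.88 (6.59 to 7.28), 7.10 (6.98 to 7.24) and 8.70 (8.61 to 8.83), and the intervals of distant and near peaks overlapped.

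The 2 terms of the fold were recovered from the deposited values. The pileup is the number of MeDIP fragments stacked at the summit, after the scaling of the list, and the background is the number expected there. The median pileup was 51.1 fragments in distant peaks (49.7 to 51.8), 59.4 in near peaks and 72.5 in overlapping peaks (71.8 to 72.5). The median background was 18 fragments in distant peaks (18 to 19), 23.0 in near peaks (22.0 to 23) and 27 in overlapping peaks (27 to 27.4). The lowest background of the list, 10.2 fragments, was found at 62 distant peaks (5.58%, 4.30 to 7.09%), against 1.64% of near and 1.04% of overlapping peaks. In all, 547 autosomal iPSC peaks (1.35%) shared this lowest value. Whether it is a lower limit set in peak calling was not tested. Both terms were thus lower at distant peaks, the background by more than the pileup in proportion, and the fold was higher.

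The width of distant peaks had a median of 227 bp (224 to 232), with quartiles of 202 and 296 bp. Near peaks had a median of 240 bp (238 to 242) and overlapping peaks 243 bp (242 to 244), and the narrowest peak of each class was 190 bp wide. Without the peaks near chromosome ends the medians were 227 bp (223 to 231), 232 bp (230 to 234) and 236 bp (235 to 237), so that the intervals of distant and near peaks overlapped. A width of 1 kb or more was reached by 13 distant peaks (1.17%, 0.624 to 1.99%), 2.18% of near and 2.10% of overlapping peaks. In all, distant peaks covered 325 kb, or 2.52% of the bases in autosomal iPSC peaks.

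These differences recurred on most autosomes. The median background and the median pileup of distant peaks were below those of near and of overlapping peaks on 20 of 20 autosomes. The median −log10 q was below that of overlapping peaks on 20 and below that of near peaks on 16. The median width was below that of overlapping peaks on 16 and of near peaks on 15. The median fold was above that of near peaks on 17, above that of overlapping peaks on 17, and above both on 16. With increasing gap the values moved gradually, with no step at 20 kb. The median background went from 25 fragments at gaps under 1 kb to 20 at 10 to 20 kb, 19.2 at 20 to 30 kb, 17 at 50 to 100 kb and 13.5 beyond. The median fold went from 2.52 at gaps under 1 kb to 2.63 at 10 to 20 kb, 2.66 at 20 to 30 kb and 2.73 at 50 to 100 kb. Over the same classes the median −log10 q went from 7.63 to 7.13, 7.12 and 6.65.

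**Figure D2:**
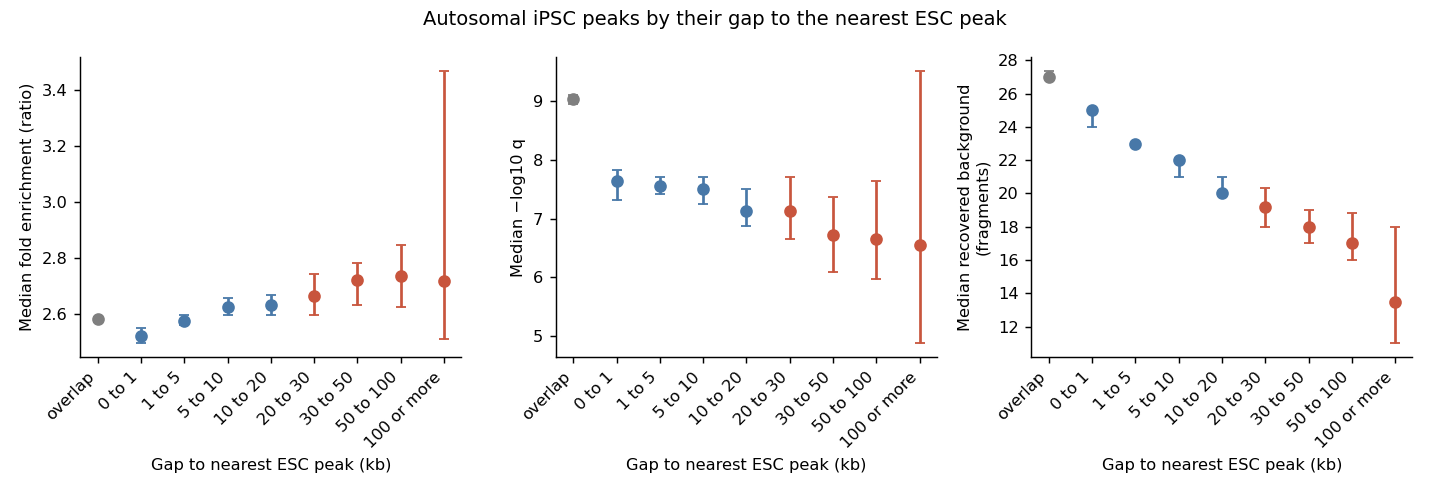
Median fold enrichment, −log10 q and recovered background (fragments) of autosomal iPSC peaks by their gap to the nearest ESC peak (kb), with exact 95% intervals of the median; grey overlapping, blue near, red distant peaks. The background falls from 27 in overlapping peaks to 13.5 at gaps of 100 kb or more, and the vertical axes do not start at 0.

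Among peaks of like background the order of the folds turned. The autosomal iPSC peaks were divided into 4 classes of nearly equal size by recovered background. Distant peaks made up 5.93% of the lowest class (5.47 to 6.40%), 2.81% of the second, 1.50% of the third and 0.719% of the highest (0.564 to 0.904%). In the lowest class, up to 19 fragments, the median fold was 2.90 in distant peaks (2.84 to 2.97) and 3.02 in overlapping peaks (3.00 to 3.04). In the second class it was 2.50 (2.40 to 2.58) against 2.77 (2.75 to 2.80). In the third and the highest class the medians were 2.46 against 2.55 and 2.17 against 2.22, with intervals that overlapped. The median fold of distant peaks was therefore the lower one in all 4 background classes, though the higher one over the whole list: 602 of the 1112 distant peaks lay in the lowest class, where folds were highest. Set beside near peaks of the same class, distant peaks had medians of 2.90 against 2.86 in the lowest, 2.50 against 2.56 in the second and 2.46 against 2.41 in the third. The intervals of distant and near peaks overlapped in each of the 4 classes. The median −log10 q of distant peaks was 6.72 in the lowest class (6.36 to 7.12), 6.74 in the second, 8.52 in the third and 7.95 in the highest. Overlapping peaks had the higher median in all 4, at 8.23, 9.51, 9.58 and 8.84, with intervals apart in the lowest and the second class. Near peaks had 7.05, 7.39, 8.02 and 8.46, above distant peaks in 3 classes and below them in the third, and the intervals overlapped in each.

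At like background the median width of distant peaks was the smallest only in the lowest class, which held 602 of the 1112 distant peaks. Its interval there overlapped those of near and of overlapping peaks. The median width of distant peaks was 216 bp in the lowest class (211 to 219), 236 bp in the second (226 to 246), 281 bp in the third (256 to 310) and 347 bp in the highest (287 to 391). In overlapping peaks it was 218, 231, 246 and 290 bp (286 to 294), below that of distant peaks in all but the lowest class. Their intervals were apart in the third class, where that of overlapping peaks ran from 244 to 249 bp. Near peaks had 219, 236, 264 and 335 bp, with intervals that overlapped those of distant peaks in each class. The median pileup of distant peaks stayed below that of overlapping peaks in all 4 classes, by 42.8 against 48.3 fragments in the lowest and 91.8 against 94.6 in the highest.

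**Figure D3:**
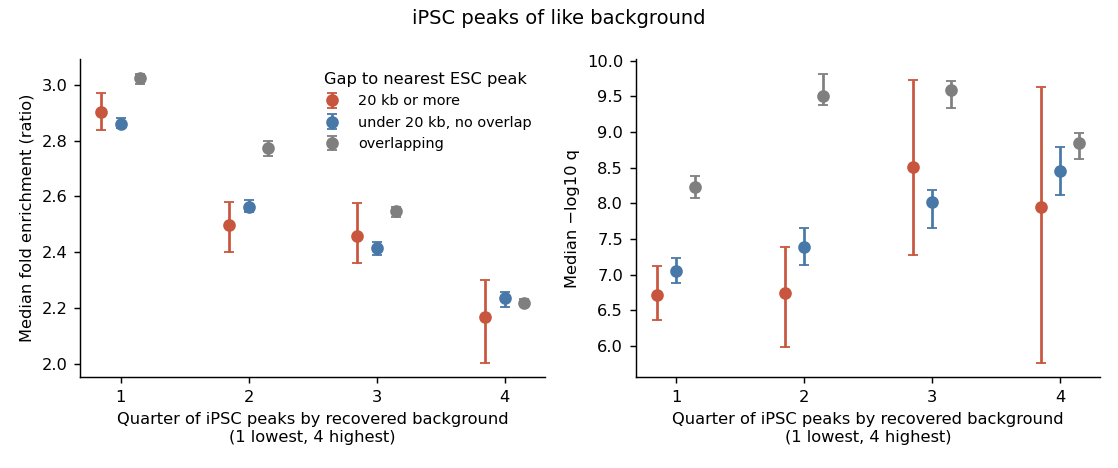
Median fold enrichment (left) and −log10 q (right) of distant, near and overlapping iPSC peaks within 4 classes of recovered background, with exact 95% intervals of the median. Overlapping peaks lie above distant peaks in each class, by 3.02 against 2.90 in fold in the lowest, and the vertical axes do not start at 0.

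Distant peaks were found at every level of significance. The autosomal iPSC peaks were divided by −log10 q into 10 classes of 4059 peaks each. In the lowest class 3.94% were distant (3.36 to 4.59%). The share was 2.61% in the fifth (2.14 to 3.15%), 1.58% in the ninth (1.22 to 2.01%) and 1.82% in the highest (1.43 to 2.28%), which starts at a −log10 q of 19.0. Thus 74 distant peaks were among the 4059 iPSC peaks with the highest −log10 q. At the other end, 46 distant peaks (4.14%, 3.04 to 5.48%) had a −log10 q below 2, against 3.52% of near and 1.86% of overlapping peaks.

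The share of distant peaks differed 10.1 times between autosomes, from 0.527% on chromosome 19 (14 of 2657 iPSC peaks, 0.288 to 0.882%) to 5.34% on chromosome 2 (80 of 1499, 4.25 to 6.60%). The interval lay above the share over all autosomes on 5 chromosomes and below it on 5, and included it on 10. ESC peaks are densest on chromosome 19, with 142.9 per Mb, and sparsest on chromosome 2, with 40.6, and clear sequence made up 7.08% of chromosome 19 and 29.2% of chromosome 2. The 4 chromosomes with the lowest shares had the highest numbers per Mb of clear sequence. They were chromosomes 20 (4.41, 3.14 to 6.03), 10 (4.35, 3.24 to 5.72), 16 (3.94, 2.64 to 5.65) and 19 (3.85, 2.11 to 6.46). Chromosomes 4 (1.15, 0.858 to 1.51) and 5 (1.18, 0.918 to 1.48) had the lowest, and chromosome 2 had 1.45. The first 4 were also the densest in iPSC peaks as a whole, at 27.6 to 51.7 per Mb, against 7.96 on chromosome 2. Per Mb of whole chromosome the numbers differed 2.05 times, from 0.273 to 0.558.

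**Figure D4:**
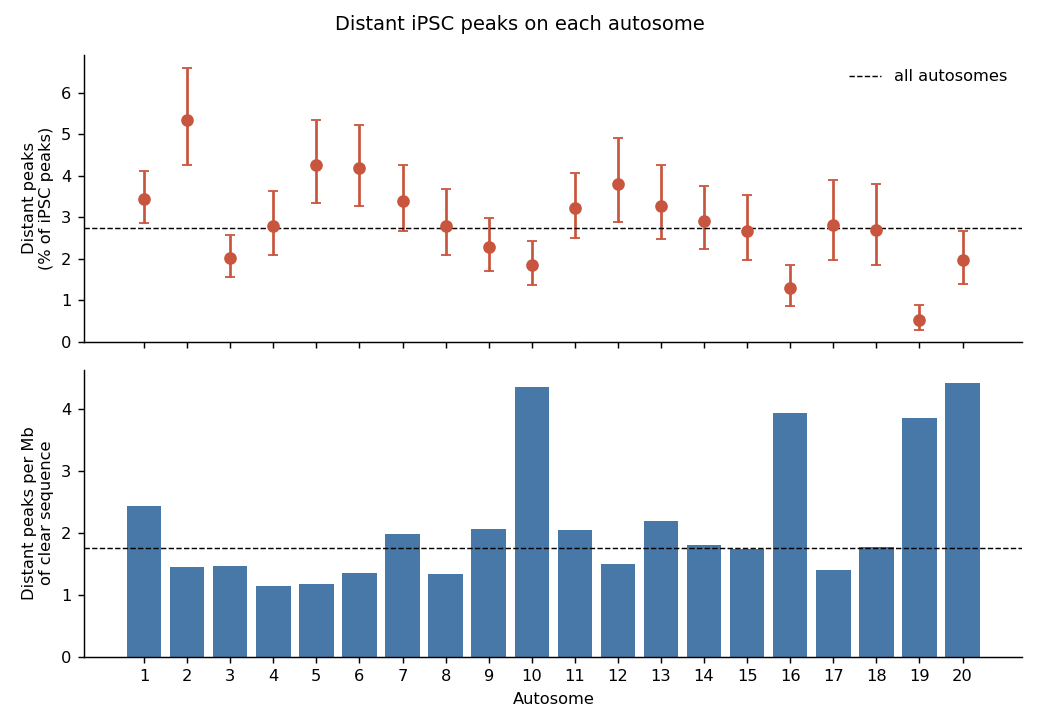
Top, distant peaks as a percentage of the iPSC peaks of each autosome with exact 95% intervals, dashed line at 2.74% for all autosomes. Bottom, distant peaks per Mb of clear sequence, dashed line at 1.76; chromosomes 10, 16, 19 and 20 stand above the others.

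Few distant peaks lay near chromosome ends, where little clear sequence is left. Within 5 Mb of an end were 48 of them (4.32%, 3.20 to 5.68%), against 31.3% of near and 33.7% of overlapping peaks. The ends held 0.976% of the clear sequence, 6.18 Mb, although they make up 7.71% of the autosomes. Per Mb of clear sequence there were 7.77 distant peaks near the ends (5.73 to 10.3) and 1.70 in the interior (1.60 to 1.80). Chromosome 6 alone had 15 of the 48. Without it, 33 peaks gave 5.64 per Mb near the ends (3.89 to 7.93), against 1.75 in the interior. All 198 distant peaks with a gap of 50 kb or more lay in the interior.

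Distant peaks mostly lay far from other iPSC peaks too, which the rule brings about in part. An overlapping peak reaches an ESC peak, so it cannot lie within 10 kb of a distant peak. How much of the contrast below comes from the rule was not tested. The nearest other iPSC peak was at a median of 48.2 kb (42.4 to 55.6), against 6.92 kb for near and 6.79 kb for overlapping peaks. Away from chromosome ends, where iPSC peaks are less dense, the medians were 52.2 kb (44.7 to 59.1), 10.6 kb and 12.4 kb. Another iPSC peak lay within 10 kb of 187 distant peaks (16.8%, 14.7 to 19.1%), but of 58.6% of near and 57.8% of overlapping peaks. Of the 961 ESC-free stretches with a distant peak, 850 had 1, 85 had 2 and 20 had 3. The remaining 6 held 4 to 8. In all, 262 distant peaks shared a stretch with at least 1 other.

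The distant peak of highest fold lay on chromosome 13 (6492575 to 6492973), with a fold of 5.58 from a pileup of 104.2 over a background of 17.9 fragments, 30.6 kb from the nearest ESC peak. The second, on chromosome 6 (36205808 to 36206504), had a fold of 5.48 from 138.7 over 24.5 fragments and the highest −log10 q of all distant peaks, 50.3. It was followed by peaks on chromosome 4 (5878974 to 5879334, fold 5.17), chromosome 7 (59080368 to 59080911, 5.16) and chromosome 2 (99567750 to 99568692, 5.16). The sixth and the seventh, on chromosome 4 (76980760 to 76980960, 5.07) and chromosome 12 (101368371 to 101368575, 5.01), were about 200 bp wide and rested on smaller pileups of 55.9 and 64.2 over backgrounds of 10.2 and 12. The last 3 of the 10 lay on chromosome 2 (451319 to 452959, 4.98), chromosome 19 (49523070 to 49523787, 4.91) and chromosome 2 again (67447328 to 67448640, 4.77). All 10 had gaps between 23.0 and 39.6 kb, so none was among the most remote, and 4 of them were also among the 5 with the highest −log10 q. The fifth of these, on chromosome 14 (47565123 to 47565927), had a −log10 q of 40.8 and a fold of 4.52.

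The 24 peaks with gaps of 100 kb or more had a median fold of 2.72 (2.51 to 3.47) and a median −log10 q of 6.56 (4.88 to 9.51), intervals that include the medians of all distant peaks. The largest gap, 253.7 kb, belonged to a peak of 200 bp on chromosome 15 (52584323 to 52584522), with a fold of 1.90 and a −log10 q of 2.05, and the next ESC peak on the other side was 375.5 kb away. A second peak on chromosome 15 (12147089 to 12147278) lay 243.8 kb from ESC peaks, with a fold of 2.48 and a −log10 q of 3.17. Peaks on chromosome 2 (163182951 to 163183156, gap 192.0 kb), chromosome 5 (129049393 to 129049598, 161.9 kb) and chromosome 10 (56817329 to 56817803, 149.0 kb) followed, with folds of 2.96, 2.51 and 2.01. The first 4 of these 5 were at least 251.1 kb from any other iPSC peak.

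The widest distant peak covered 2857 bp of chromosome 1 (46661502 to 46664358), with a fold of 3.20, and had ESC peaks at 21.2 kb on one side and 186.9 kb on the other. The next were peaks of 1716 bp on chromosome 11 (45979483 to 45981198, fold 2.13), 1641 bp on chromosome 2 (451319 to 452959, also among the 10 of highest fold), 1562 bp on chromosome 10 (56271847 to 56273408, fold 2.70) and 1459 bp on chromosome 11 (117652846 to 117654304, fold 3.71). All 13 distant peaks of 1 kb or more had gaps of at most 39.2 kb.

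The 3 ESC-free stretches with the most distant peaks differed in their layout. The first spanned 307.5 kb of chromosome 10 (56659229 to 56966762) and held 8 iPSC peaks, all of them distant. They were spread over 193.0 kb at spacings of 13.0 to 35.3 kb, with folds of 1.97 to 3.47, widths of 195 to 475 bp and gaps of 20.4 to 149.0 kb. This gave 26.0 iPSC peaks per Mb within the stretch, close to the 27.3 per Mb in the 2 Mb on each side of it, where the 109 iPSC peaks comprised 53 overlapping and 10 distant ones. All 3 stretches were picked for their number of distant peaks, which raises the density within them by choice. The median background was 25.5 fragments in the stretch and 27.0 around it.

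The second stretch, 86.5 kb of chromosome 6 (3356380 to 3442893), held 7 iPSC peaks, all distant and packed into 15.7 kb. Their folds ran from 1.82 to 3.51, their widths from 190 to 771 bp, and their spacing from 302 to 4213 bp. The median background there was 36 fragments, against 25 at the 164 iPSC peaks within 2 Mb on either side and 18 over all distant peaks. The third, 55.1 kb of chromosome 7 (130353064 to 130408133), held 6 iPSC peaks, of which 5 were distant and lay within 10.6 kb. These had folds of 2.02 to 2.38, widths of 286 to 445 bp and a median background of 22.0 fragments, against 26 around the stretch. Per Mb, the second stretch held 80.9 iPSC peaks against 41 around it, and the third 109 against 15.25. In none of the 3 stretches did a fold exceed 3.51, whereas the 10 highest folds of the class started at 4.77.

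**Figure D5:**
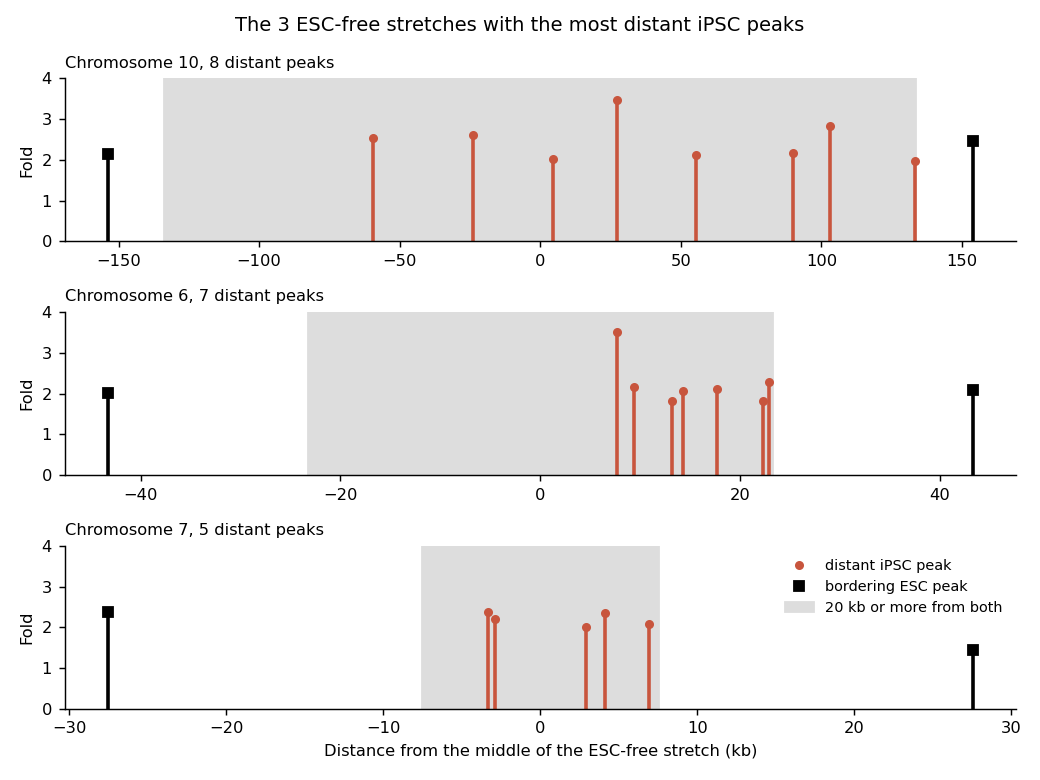
Deposited fold of each distant iPSC peak (red) and of the bordering ESC peaks (black, on the scale of their own list) against distance from the middle of the ESC-free stretch (kb); shading marks positions 20 kb or more from both borders. The 8 peaks on chromosome 10 are spread over 193.0 kb, while the 7 on chromosome 6 and the 5 on chromosome 7 stand within 15.7 and 10.6 kb.

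With the lists exchanged, 60860 of 151630 autosomal ESC peaks, 40.1% (39.9 to 40.4%), lay 20 kb or more from every iPSC peak, 54.7 times the number of distant iPSC peaks. The iPSC list is much the shorter, so an ESC peak has fewer iPSC peaks to lie near, and the 2 shares are not directly comparable. These ESC peaks had a median fold of 2.46 and a median width of 207 bp, against 2.06 and 257 bp for ESC peaks that overlapped an iPSC peak. Their median −log10 q was 6.82 against 9.16. Over each whole list, therefore, peaks remote from the other list had a higher median fold, a lower median −log10 q and a smaller median width than peaks shared with it. Among iPSC peaks of like background, the median fold of distant peaks was below that of overlapping peaks in every class. Their median width was the smaller only in the lowest class. ESC peaks were not divided by background.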

How the data were processed

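MeDIP-seq peaks of baboon ESC and iPSC were taken from 2 deposited narrowPeak lists, grouped by cell type from the titles of the 24 libraries. The submitters' processing notes name SAMtools 1.10, Picard 2.239, MACS2 and deepTools. Not given in the sources used here: the aligner, the genome build, the MACS2 version and how libraries were pooled. In the deposited lists, fold enrichment is a linear ratio of fragments at the summit to the local background. Each peak also has a deposited −log10 p-value and, adjusted over the list, a −log10 q-value. A deposited whole-number score repeats the q-value and was not used. The smallest −log10 q was 1.30 in both lists, a q of 0.05.

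Gaps were computed from columns 2 and 3, and positions are printed counted from 1. Distance to a chromosome end runs from the first base or from the end of the last peak in either list. Pileup and background were recovered from fold, taken as formed after adding 1 to pileup and background alike, and p, taken as a Poisson tail, with the pileup a whole number of fragments times a factor of 0.690 fitted on the iPSC list. The predicted −log10 p was within 0.000139 of the deposited one for each iPSC peak, and 6 distant peaks had a second solution nearly as close. Gap search and recovery were tested on simulated peaks. Depth per library is unknown. Regions named are the 10 distant peaks of highest fold, the 5 of largest gap, of greatest width and of highest −log10 q, the 3 fullest ESC-free stretches, and 3 peaks on each side of the limit. Members and rules were chosen with earlier results of these data known. Calculations used scipy 1.17.1, pandas 2.3.3 and numpy 2.4.6 under Python 3.11.15, and plots matplotlib 3.10.9.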

Additional observations from a re-analysis of the deposited data

Results flagged for a closer look

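Chromosome X was left out of the values above, which cover autosomes. By the same rule it held 83 distant iPSC peaks of 601 (13.8%, exact 95% interval 11.2 to 16.8%). It is listed because these peaks lie outside the comparisons above. No value per library and no test bear on the count, which the position rule itself makes. Of these, 47 stood in a single ESC-free stretch and 36 elsewhere on X. The median fold of the 83 was 2.65 and their median background 22.4 fragments.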

How the results depend on the processing

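The number of distant peaks follows from the limit and from the length of the ESC list. At a gap of 10 kb there were 2859 (7.04% of iPSC peaks, 9.51% of them within 5 Mb of an end), and at 50 kb 198 (0.488%, with 0% near an end and a median width of 222 bp). With ESC peaks of −log10 q of at least 5 there were 2472 (6.09%, width 236 bp). With the ESC list at the length of the iPSC list there were 10152 (25.0%), with a median fold of 2.61, width of 240 bp and −log10 q of 7.33, and 12.5% near an end. A shorter ESC list has fewer peaks to lie near. With iPSC peaks of −log10 q of at least 5 the share was 2.43%, the fold 2.98 and the −log10 q 9.07, which that filter raises by construction. Within 2 Mb of an end lay 1.44% and within 10 Mb 12.9%. Of ESC peaks, 52.3% were at least 10 kb and 23.3% at least 50 kb from iPSC peaks. The density in clear sequence, relative to all autosomes, was 0.112, and 0.162 and 0.0771 with 10 and 50 kb kept clear. With 1 peak per stretch, chosen after seeing the data as its highest fold, the median fold was 2.74. The other 30 values stayed within the main intervals, or for the number within 1.5 times. In each alternative with a gap rule the distant peaks had a higher median fold and a lower median −log10 q and width than the other iPSC peaks. With the ESC list at the length of the iPSC list, the fold was 2.61 against 2.58 and the width 240 against 242 bp. None of these alternatives compared peaks of like background, where distant peaks had a lower median fold than overlapping ones. Also added after seeing the data were the values without chromosome ends, without chromosome 6 and for stretches with a single distant peak. No paired analysis was possible because the deposited lists hold no values per library, and for that reason no replicate could be left out.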
